A study of Drosophila melanogaster with 2 samples.

Results

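Divergent promoters are places where a pair of protein-coding genes start back to back and are transcribed away from each other. Peaks of the zinc finger protein CG11247 were assigned to them by position alone. A peak was kept when its summit lay within 500 bp of the start site (TSS) of a protein-coding gene and that nearest TSS had a TSS of another protein-coding gene, on the opposite strand and pointing away, at most 1000 bp upstream. Of the 4476 passing peaks on the chromosome arms 2L, 2R, 3L, 3R, 4 and X, 897 met this rule, or 20.0%. Another 1182 passing peaks lay within 500 bp of a TSS without such a partner and are called unpaired promoter peaks here. The 897 peaks lay at 818 gene pairs with 1630 genes, and 743 pairs held 1 peak, 71 held 2 and 4 held 3 or more, so peaks of 1 pair share their promoter.

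The series is a chromatin immunoprecipitation followed by sequencing (ChIP-seq) of whole Drosophila melanogaster embryos of 0 to 24 h. The flies, of a strain labelled CG11247-GFP, carried a transgene for CG11247 joined to enhanced green fluorescent protein (eGFP), and the labels name GFP as the target of the antibody. There was 1 group with 2 biological replicates, 1 library each, and no second condition. Whole embryos mix all cell types and all stages of embryogenesis, and the labels name neither the promoter of the transgene nor whether the normal CG11247 gene was still present. Passing peaks are those of the authors' thresholded list made from the pooled reads of both replicates, and ranked peaks are the 137752 candidates of the list from which it was drawn. The signal of a peak is a score of the peak caller that rises with the reads under the peak and is not comparable between lists. A control is named in the labels and was not used here, so a passing peak does not tell CG11247 apart from background that precipitates with any antibody.

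In Drosophila, divergent pairs are common and are often made of housekeeping genes, which most cells transcribe. Their promoters tend to lack strong tissue-specific control and carry a set of recurring sequence elements, among them the DNA replication-related element (DRE), bound by Dref and by the boundary protein BEAF-32, and Ohler's Motif 1, 6 and 7, of which Motif 1 is the site of M1BP. Promoters of developmental genes more often hold GAGA sites, bound by the GAGA factor Trl, and a TATA box or an initiator.

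The sequences under 6 of the strongest peaks, taken in order of signal where a stretch without any annotated exon could be shown, are given first, since they show what the strongest binding sites look like. Each is the stretch between the paired TSSs within 100 bp of the summit, on the plus strand of the RefSeq release 6 assembly (dm6), 5′ to 3′, and capitals mark the short BEAF-32 site CGATA or its reverse complement. The stretches were clipped at exons, and the pair of PNPase and Gprk2 was passed over for this reason. The second strongest of the 897 peaks, at mRpL41 and CG8079, is not shown either.
Ugalt and eIF2Bbeta (chrX:2703853-2703997): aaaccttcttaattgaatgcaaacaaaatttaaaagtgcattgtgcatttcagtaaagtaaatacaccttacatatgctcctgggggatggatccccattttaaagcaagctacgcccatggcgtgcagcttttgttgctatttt
CG7601 and CIA30 (chr3R:29736752-29736952): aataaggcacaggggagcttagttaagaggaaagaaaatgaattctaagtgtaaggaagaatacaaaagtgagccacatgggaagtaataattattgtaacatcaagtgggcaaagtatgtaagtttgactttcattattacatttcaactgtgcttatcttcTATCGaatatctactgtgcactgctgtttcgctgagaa
Tcs5 and CHMP2B (chr3L:5139396-5139593): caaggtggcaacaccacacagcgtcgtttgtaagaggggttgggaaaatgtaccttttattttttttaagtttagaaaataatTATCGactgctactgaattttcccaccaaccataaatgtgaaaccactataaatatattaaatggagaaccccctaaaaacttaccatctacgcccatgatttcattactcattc
CG5611 and Mtl (chr3R:27636083-27636283): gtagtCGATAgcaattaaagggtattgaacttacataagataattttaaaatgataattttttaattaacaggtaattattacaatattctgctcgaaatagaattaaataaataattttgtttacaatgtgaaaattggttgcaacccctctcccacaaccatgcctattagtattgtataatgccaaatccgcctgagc
CenG1A and mRpS23 (chr2L:13835365-13835563): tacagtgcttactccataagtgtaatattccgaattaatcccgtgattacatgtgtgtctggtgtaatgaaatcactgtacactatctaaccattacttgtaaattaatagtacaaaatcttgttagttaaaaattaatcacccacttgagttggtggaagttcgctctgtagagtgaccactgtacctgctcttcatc
mRpS10 and Art3 (chr3R:15229437-15229637): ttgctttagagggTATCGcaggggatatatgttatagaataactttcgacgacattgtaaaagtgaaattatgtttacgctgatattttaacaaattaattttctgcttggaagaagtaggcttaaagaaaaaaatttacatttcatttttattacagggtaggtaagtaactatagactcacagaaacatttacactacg
The short site was printed in capitals in 4 of these 6 stretches and was in neither the Ugalt nor the CenG1A stretch. It was not more frequent in strong peaks at large. Within 100 bp of the summit it was found in 38% (29.1 to 47.8%) of the strongest 100 peaks and 46.9% of all 897. The stretches were rich in A and T, with a GC content between 29.4% at CG5611 and 37.9% at Ugalt.

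The next stretches hold a DRE (TATCGATA) or Motif 7, in capitals, and were chosen after their values were seen among the strongest peaks whose summit and motif both lay in such a stretch of at least 100 bp. Elp5 with CG1275, stronger than Bulli and with a Motif 7, had its summit outside the 33 bp between its TSSs and is not shown. The summits at Shc, Lamtor3 and Bulli are at positions 9426887, 17481142 and 6488590. The DRE and Motif 7 matches lay toward the ends of these stretches, which do not show the usual distance from a summit. The stretch at Shc held both, that at Lamtor3 a DRE and that at Bulli a Motif 7.
Shc and Atat (chr3L:9426787-9426987): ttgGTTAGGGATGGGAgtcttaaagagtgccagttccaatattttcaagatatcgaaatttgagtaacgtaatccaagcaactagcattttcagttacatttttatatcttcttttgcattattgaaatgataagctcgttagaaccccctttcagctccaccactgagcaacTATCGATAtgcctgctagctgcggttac
Lamtor3 and fws (chr2L:17481042-17481230): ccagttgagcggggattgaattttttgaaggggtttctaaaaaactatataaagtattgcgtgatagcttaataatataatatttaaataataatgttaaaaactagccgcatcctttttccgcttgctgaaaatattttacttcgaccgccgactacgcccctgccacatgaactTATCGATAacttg
Bulli and CG10147 (chr3L:6488490-6488680): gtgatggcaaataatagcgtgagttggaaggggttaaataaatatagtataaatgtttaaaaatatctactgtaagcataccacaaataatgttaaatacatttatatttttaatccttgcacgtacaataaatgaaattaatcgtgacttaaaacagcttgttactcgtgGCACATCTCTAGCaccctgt

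Genes of divergent pairs were bound more often than other genes. A gene was called bound when a passing summit lay within 500 bp of one of its TSSs, as 23.7% were of 10966 protein-coding genes that had any ranked summit within that distance. The class of a gene was that of its TSS nearest to a ranked summit, so a gene could be bound at a TSS of the other class. Of 3935 genes with a ranked summit and a divergent partner, 1495 were bound, or 38.0% (Wilson 95% interval 36.5 to 39.5%). Of 7031 without a partner, 1104 were bound, or 15.7% (14.9 to 16.6%). The ratio was 2.42 (2.26 to 2.59; Fisher's exact test, two-sided, Benjamini-Hochberg adjusted p = 3.41e-147 over 5 comparisons). In replicate 1 alone the shares were 31.5% and 12.3%, and in replicate 2 alone 28.7% and 11.0%. The means were 30.1 ± 1.97% with a partner and 11.6 ± 0.943% without (SD, n = 2), so the gap was larger than the spread between replicates. Both genes of a pair can be bound through 1 peak, which raises the count of bound genes but not that of summits. Of the 897 summits, 705 lay within 500 bp of both TSSs. The test and the intervals count such genes as separate units, so the p-value and the intervals of bound genes overstate the precision.

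Counted by summit, the difference had about the same ratio. Of 17783 ranked summits at promoters, 11.7% passed, against 3.33% of all 134262 ranked summits on the arms. At divergent promoters 897 of 4441 ranked summits passed, or 20.2% (19.0 to 21.4%). At unpaired promoters 1182 of 13342 passed, or 8.86% (8.39 to 9.35%). The ratio was 2.28 (2.10 to 2.47; Fisher's exact test, adjusted p = 4.21e-83). Replicate 1 gave 17.3% against 7.48% and replicate 2 gave 15.0% against 6.35%, and in each replicate the intervals of the classes did not overlap. Peaks, summits and genes are the units of these tests, and the p-values say nothing of replicate spread, for which both replicates' values are given.

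The share of bound genes varied with the distance between the paired start sites. It was 32.1% (28.5 to 35.9%) for start sites at most 100 bp apart and 33.8% (29.7 to 38.3%) for the next 100 bp. It was highest, 48.2% (44.9 to 51.5%), for pairs more than 200 and at most 300 bp apart. Up to 500 bp it was 44.4% (41.3 to 47.5%), and up to 1000 bp 28.0% (25.3 to 30.9%). The interval of the bin with the highest share overlapped that of the following bin and of no other. Beyond the limit of the rule the share was 18.6% up to 2000 bp, 17.0% up to 5000 bp and 14.6% for genes with a farther partner or none.

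Ranked summits followed a similar order. Of those at pairs up to 100 bp apart 20.0% passed, and of those at pairs more than 200 and at most 300 bp apart 26.4% (23.5 to 29.5%). For pairs of more than 500 bp it was 15.2% (13.5 to 17.1%), and 11.6%, 9.16% and 8.19% in the 3 bins past the limit. The median signal of the passing peaks was also highest in the bin of up to 300 bp, at 180.6, and lay between 127.0 and 147.4 in the other bins of divergent pairs. These bins are a description, with no test between them.

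**Figure D1:**
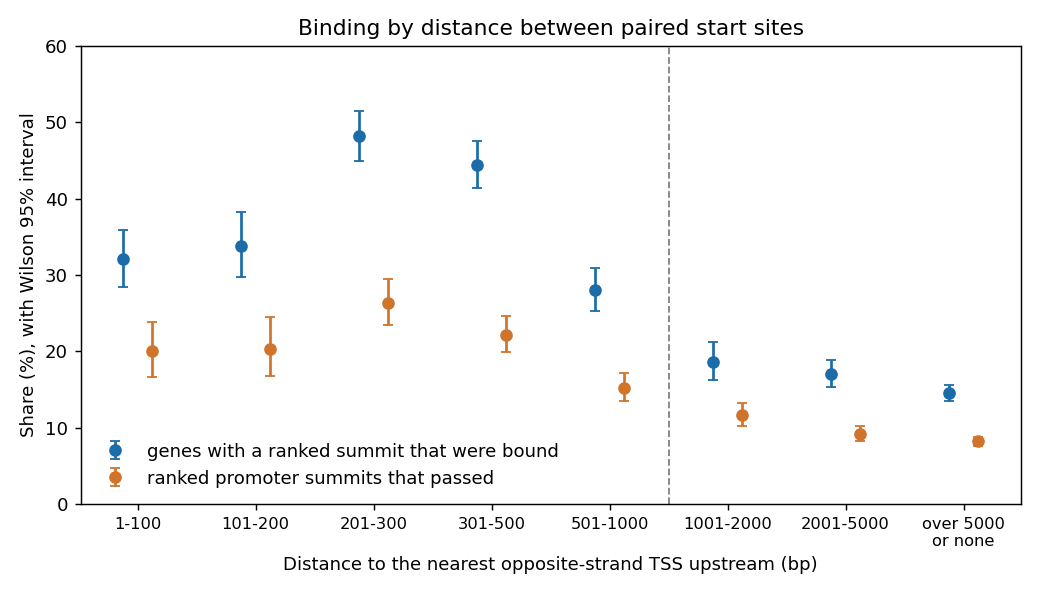
Share of protein-coding genes with a ranked summit that were bound (blue) and of ranked promoter summits that passed (orange), in percent, by the distance in bp from a TSS to the nearest opposite-strand TSS upstream, with Wilson 95% intervals. The dashed line is the 1000 bp limit of a divergent pair. Bound genes peak at 48.2% between 200 and 300 bp and fall to 14.6% where no partner lies within 5000 bp.

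In the pooled list, peaks at divergent promoters were somewhat stronger than those at unpaired promoters. The median signal was 144.8 (quartiles 99.2 and 235.8) at divergent promoters, 131.6 at unpaired ones and 108.2 away from promoters. In replicate 1 the medians were 78.9 and 72.3 at divergent and unpaired promoters, and in replicate 2 they were 69.5 and 65.7. Above the median of all passing peaks were 561 of 897 peaks at divergent promoters, or 62.5% (59.3 to 65.6%), against 664 of 1182, or 56.2% (53.3 to 59.0%). This passed in the pooled list (ratio 1.11, 1.04 to 1.20; Fisher's exact test, adjusted p = 0.00660). It did not pass in replicate 1 alone (ratio 1.06, adjusted exact p = 0.220) or in replicate 2 alone (ratio 1.08, adjusted exact p = 0.165), which had fewer peaks.

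The share of divergent promoters among passing peaks went up with signal. Passing peaks were cut by signal into 10 bins of equal size, and in the strongest bin, with signals from 322.4 to 2616.9, 29.3% (25.3 to 33.7%) were at divergent promoters. It was 21.0% in the fifth bin and 10.9% and 14.1% in the 2 weakest. Unpaired promoters went from 34.0% in the strongest bin to 24.3% in the weakest. Of the 10 strongest passing peaks on the arms 7 were at divergent promoters, as were 13 of the strongest 25 and 32 of the strongest 100, while 36 of those 100 were at unpaired promoters.

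Most of the peaks were found in at least one replicate on its own. Of the 897, 631 shared at least 1 bp with a passing peak of replicate 1, and 629 did so with one of replicate 2. Both replicates held 506, or 56.4% (53.1 to 59.6%), and neither held 143. At unpaired promoters both replicates held 52.0% (49.2 to 54.9%), a difference that did not pass (ratio 1.08, 1.00 to 1.17; Fisher's exact test, adjusted p = 0.0633). Across the 891 peaks with an overlapping ranked peak in both replicates, Spearman's rank correlation between the replicates' signals was 0.765. Peaks are not independent samples and were chosen for matching ranks, so no p is given.

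**Figure D2:**
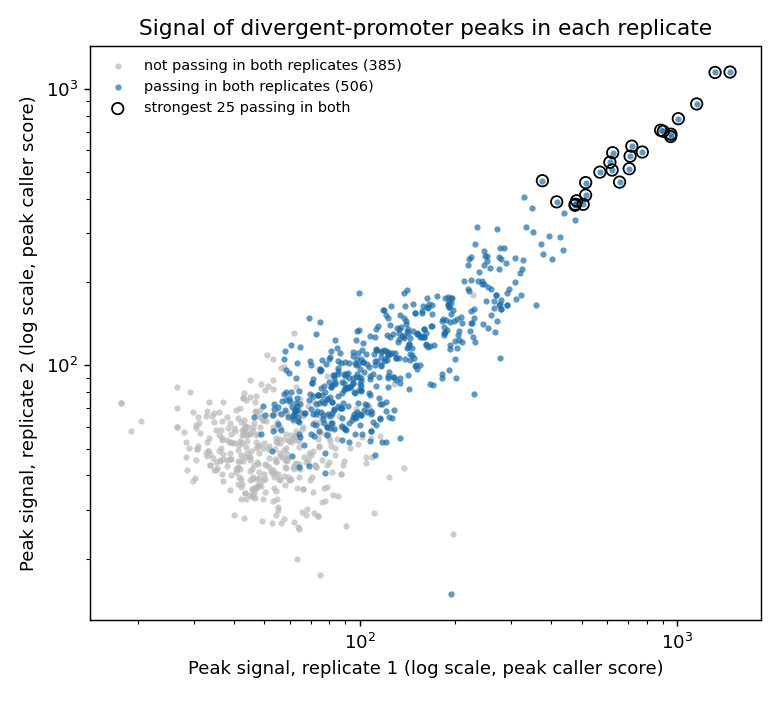
Signal of peaks at divergent promoters in replicate 1 (x axis) and replicate 2 (y axis), both on log scales in units of the peak caller's score, for the 891 peaks with a ranked peak in both. Blue points are the 506 that pass in both replicates, grey points the others, and rings mark the strongest 25. The ringed peaks lie at 375.8 or more in replicate 1 and 379.2 or more in replicate 2, apart from nearly all other peaks.

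The strongest peak of the pooled list lay between Ugalt, which encodes a UDP-galactose transporter, and eIF2Bbeta, a subunit of the exchange factor of translation initiation factor eIF2. Its pooled signal was 2616.9, with 1466.8 in replicate 1 and 1149.5 in replicate 2 (X, 2703703 to 2704056). The summit was 45 bp upstream of Ugalt and 674 bp from the TSS of eIF2Bbeta, so it sat at 1 end of an interval of 719 bp. The next of the 897 lay 138 bp upstream of mRpL41, a protein of the large mitochondrial ribosomal subunit, in an interval of 762 bp shared with CG8079 (2433.8; 1315.5 and 1145.5 in replicates 1 and 2; 2R, 15217571 to 15217917). These were the longest intervals of the 25 strongest peaks, whose median was 243 bp.

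The peak between CG7601 and CIA30, a complex I assembly factor, had a signal of 2007.6 and lay 107 bp and 113 bp from the 2 TSSs, close to the middle (3R, 29736687 to 29737017). The peak between Tcs5, which takes part in a tRNA modification, and the ESCRT-III gene CHMP2B had 1784.4 and lay 98 and 126 bp from them (3L, 5139335 to 5139649). The peak of CG5611 and Mtl had 1640.6, that of CenG1A and mRpS23, a small-subunit mitochondrial ribosomal protein, 1631.4, that of PNPase, polynucleotide phosphorylase, and Gprk2, a G protein-coupled receptor kinase, 1597.8, and that of mRpS10 and the arginine methyltransferase gene Art3 1597.6. These 8 peaks, from Ugalt to mRpS10, passed in both replicates. When the pooled passing peaks were ranked by their signal in each replicate, all 8 were among the first 12.

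Further pairs among the strongest 25 hold genes for chromatin and basic cell functions. Chro, a chromodomain protein of chromosomes and the spindle, shared its promoter with Ssl1, a subunit of general factor TFIIH (signal 1272.0; 710.2 and 570.5 in the replicates). The summit lay 82 bp downstream of Chro in a pair 105 bp apart. The Golgi GTPase gene Arl1 was paired with brm, the ATPase of the Brahma chromatin remodeller (931.2; 514.2 and 412.4), and Mppe with the cohesin regulator gene pds5 (887.6; 481.7 and 393.5). RpS27, a ribosomal protein, was paired with Nup37 of the nuclear pore (861.3; 375.8 and 465.2). Others were Shc, an adaptor of receptor signalling, with the tubulin acetyltransferase gene Atat (1336.3), Elp5 of the Elongator complex with CG1275 (1126.0), and Lamtor3 of the Ragulator complex with fws (849.6). Of the 25, 18 had the summit between the paired TSSs.

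The CG11247 gene itself lay at a divergent promoter with a peak. It is paired with Polr2H, a subunit of the RNA polymerases, and the peak had a signal of 562.3, with 307.0 in replicate 1 and 244.8 in replicate 2 (3L, 21728671 to 21728919). The summit was 15 bp downstream of the nearest TSS of CG11247. Another 5 passing peaks whose nearest divergent TSS was that of CG11247 lay 630 to 10275 bp downstream of it, with signals from 144.4 to 75.4. The flies carry this gene's sequence in the transgene too, and the part of those copies in the peaks was not tested.

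Summits lay mostly between the paired start sites. Of the 897, 701 were upstream of the nearest TSS and thereby between the pair, or 78.1% (75.3 to 80.7%), 193 were downstream and 3 at the TSS. The median offset was 58 bp upstream (-58; quartiles -105 and -9). At unpaired promoters the median offset was -112 bp (-212 and -7.25), and 76.6% (74.2 to 79.0%) were upstream. The difference in upstream shares did not pass (ratio 1.02, 0.973 to 1.07; Fisher's exact test, adjusted p = 0.428). By the rule a summit past the midpoint counts for the partner, so upstream offsets of divergent promoters cannot exceed 50% of the interval. Because the rule limits the positions in 1 class, no conclusion is drawn from that test, and the offsets were not tested. Both TSSs lay within 500 bp of the summit for 705 peaks, or 78.6%, and the median distance to the partner's TSS was 271 bp. The median distance between paired TSSs was 327 bp (quartiles 229 and 517).

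Where the summit lay varied with the room between the start sites, which itself limits the positions between them. For pairs up to 100 bp apart only 37.5% of summits were between the TSSs, and the median summit lay 20 bp downstream of the nearest TSS. For the next 100 bp 58.5% were between, and from 200 to 300 bp 86.9%, with a median offset of -80 bp. At distances above 300 and up to 500 bp the median offset was -79 bp and above 500 bp it was -62 bp. Among the summits between the TSSs, the median lay at 11.9% of the interval from the nearest TSS in the widest pairs, against 34.8% for pairs of more than 200 and at most 300 bp. In pairs up to 100 bp and up to 200 bp apart it lay at 25.9% and 30.9%. Relative to the interval, summits thus lay nearer the midpoint in pairs of 200 to 300 bp than in wider pairs, though mostly short of it. The median offset in bp differed little between these bins, so the relative position falls as the interval widens.

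**Figure D3:**
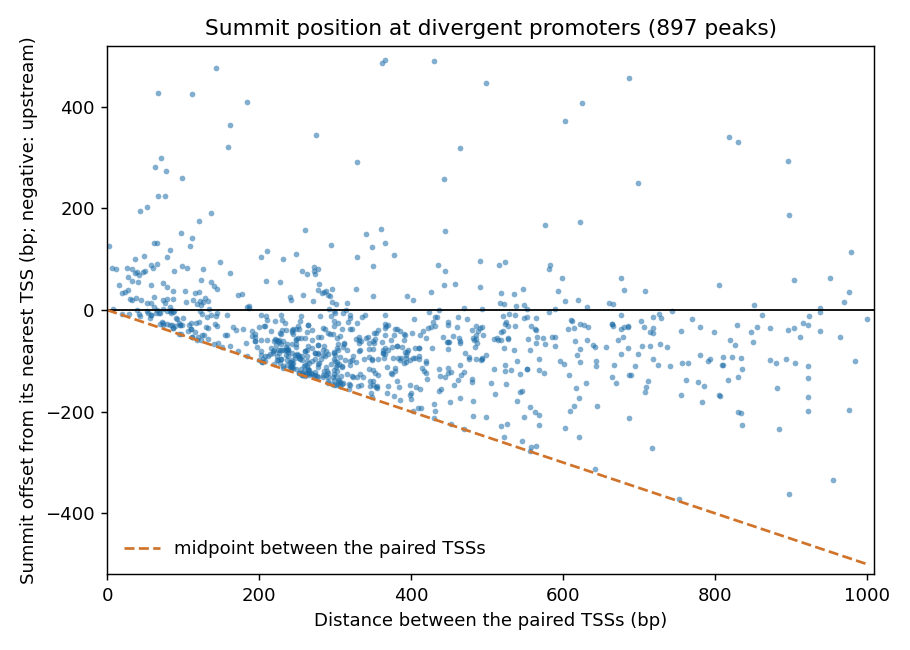
Offset of the summit from its nearest TSS in bp (y axis, negative upstream) against the distance between the paired TSSs in bp (x axis) for 897 peaks. The dashed line is the midpoint between the TSSs, below which no summit can lie. For pairs of 200 to 300 bp most points lie close above the midpoint line, and for wider pairs they stay near the median of -79 or -62 bp.

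Each limit of the rule had neighbours on both sides. Just inside 1000 bp between TSSs lay RpS7 and Anp (1000 bp, signal 238.5), Ance and Smg5 (984 bp, 157.9) and CG17127 and CG6724 (979 bp, 80.7). Just outside were Nep1 and raptor (1004 bp, 86.7), CG9992 and CG4239 (1012 bp, 111.4) and Eno and Rrp40 (1015 bp, 551.2). Just inside 500 bp from the summit were SREBP (493 bp, 136.0), Pih1D1 (491 bp, 106.7) and Dhpr (487 bp, 81.7), and just outside wde (502 bp, 411.0), CG5854 (511 bp, 132.6) and Pi3K92E (515 bp, 139.9).

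Peaks at divergent promoters were spread over the long arms. The share of ranked divergent summits that passed was 22.5% on 2L, 19.0% on 2R, 23.2% on 3L, 21.1% on 3R and 14.5% (12.2 to 17.2%) on X. The interval of X overlapped that of 2R and of no other long arm, and its median signal, 122.9, was the lowest of the 5. Chromosome 4 had 0 ranked summits at divergent promoters.

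Genes of housekeeping complexes were under these peaks to different degrees. Of the 13945 protein-coding genes on the arms 36.2% had a divergent TSS, and of those 5052 genes 32.3% (31.0 to 33.6%) belonged to a pair with a peak. Lists of genes were counted with no test, and ribosomal protein lists and most others were chosen with their results known. Cytosolic ribosomal protein genes had a divergent TSS in 56 of 93 cases, and 44 of the 56 were under a peak, or 78.6% (66.2 to 87.3%). RpS27 led them, followed by RpL7 with Ripalpha (signal 733.7; 328.0 and 407.1 in replicates 1 and 2) and RpL34b with CG8132 (571.3; 271.1 and 310.2).

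Genes of the mitochondrial ribosome were divergent in 58 of 73 cases, and 27 of the 58 were under a peak, or 46.6% (34.3 to 59.2%), led by mRpL41, mRpS23 and mRpS10. Among those with a ranked summit, 26 of 54 divergent ones were bound, against 0 of 11 without a partner, or 48.1% (35.4 to 61.1%) against 0% (up to 25.9%). The proteasome had 9 of 18 divergent genes bound, or 50% (29.0 to 71.0%), and 1 of 16 unpaired ones, or 6.25% (1.11 to 28.3%). The intervals of bound genes in both lists hold the shares of all genes, 38.0% with a partner and 15.7% without. These counts of bound genes are thus not told apart from the background. The interval of mitochondrial ribosome genes under a peak, from 34.3%, lay above the 32.3% of all divergent genes, without a test. The strongest proteasome peak was at Rpn6, a lid subunit, and ave (210.6; 113.4 and 103.4). The cytosolic ribosomal proteins were bound at 43 of 53 divergent genes, or 81.1% (68.6 to 89.4%), and 20 of 31 unpaired ones, or 64.5% (46.9 to 78.9%), and both intervals lay above the shares of all genes.

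Membrane traffic genes were under a peak in 30 of 59 divergent cases, or 50.8% (38.4 to 63.2%), with Arl1, AP-1sigma, an adaptor subunit paired with the tRNA synthetase gene GluProRS (532.5; 289.5 and 234.9), and Vps33B with Fur1 (466.4; 268.4 and 179.9). The membrane traffic interval lay above the 32.3% of all divergent genes, again without a test. Nuclear pore genes and Mediator genes each had 10 of 21. Nup37 led the first, and MED17 with CG12321 (377.5; 191.2 and 171.2) and MED30 with Rev1 (377.1; 223.4 and 156.6) led the second, which encodes the complex between activators and RNA polymerase II. Insulator and promoter factors had 5 of 10, with Chro, then Cp190, a cofactor of insulator proteins (478.5; 290.0 and 183.1), and Dref, whose peak is the one at RpL13 (191.3; 85.5 and 95).

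Shares closer to the 32.3% of all divergent genes were found for the other basic lists. They were 34.3% for DNA replication and the cell cycle (12 of 35, with Cdc16 of the anaphase-promoting complex at 441.6), 32.0% for general transcription and RNA polymerase II (8 of 25), 30.4% for aminoacyl-tRNA synthetases (7 of 23), 26.9% for translation factors (7 of 26), 25% for the respiratory chain and ATP synthase (11 of 44) and 23.1% for the spliceosome (6 of 26). The intervals of these lists all held 32.3%, as did those of the nuclear pore (from 28.3%), Mediator (from 28.3%) and insulator lists (from 23.7%). Of the respiratory chain the strongest was ND-ASHI, a complex I subunit, paired with Fum1, a fumarase (532.3; 320.3 and 215.3).

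Chemoreceptor, cuticle and segmentation genes had few divergent start sites. Chemoreceptor genes had a divergent TSS in 26 of 179 cases and 2 were under a peak, or 7.69% (2.14 to 24.1%), against the 32.3% of all divergent genes. These were Ir60e, which shares its promoter with CG13585 (signal 104.4), and Gr63a, which shares its promoter with Lamtor4 of the Ragulator complex (79.0). The summits lay 37 and 47 bp upstream of the partner genes CG13585 and Lamtor4. Of the cuticle list 13 of 119 were divergent and 1 was under a peak, Cpr (119.3), which encodes NADPH-cytochrome P450 reductase and matched the letters of the list without being a cuticle protein. Without it 0 of the others were under a peak, and the interval of the list, up to 33.3%, held the share of all divergent genes. None of 25 segmentation and Hox genes had a divergent TSS, so 0 could be counted.

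The motifs near summits set divergent apart from unpaired promoters. Within 100 bp of the summit, on either strand, 12 motifs were sought, and 9 had shares that differed between the 897 and the 1182 peaks (Fisher's exact test, two-sided, Benjamini-Hochberg over the 12). The DRE was in 108 of the 897 windows, or 12% (10.1 to 14.3%), against 4.82% at unpaired promoters (ratio 2.50, adjusted exact p = 6.63e-09). Motif 7 was in 173, or 19.3% (16.8 to 22.0%), against 7.95% (ratio 2.43, adjusted exact p = 4.02e-13). The short BEAF-32 site CGATA, which is also part of every DRE, was in 46.9% against 32.7% (ratio 1.43, adjusted exact p = 3.40e-10). Motif 6 was in 15 windows, 1.67% against 0.254% (ratio 6.59, adjusted exact p = 0.00118). With the outermost start site of each gene alone the Motif 6 ratio was 2.30, from 12 and 6 windows, and did not pass (adjusted exact p = 0.132), nor did it in a window of 50 bp (adjusted exact p = 0.0561).

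GAGA sites (GAGAG) were rarer at divergent promoters, in 16.7% (14.4 to 19.3%) against 28.6% (26.1 to 31.2%; ratio 0.585, adjusted exact p = 6.52e-10). The CTCF site AGNNGGCGC, of another insulator protein, was in 2.12% against 4.40% (ratio 0.481, adjusted exact p = 0.00822), and the initiator core TCAGT in 29.7% against 34.8% (ratio 0.853, adjusted exact p = 0.0211). The TATA box TATAAA was more frequent, in 36.2% against 27.1% (ratio 1.34, adjusted exact p = 2.03e-05). The M1BP core GGTCACACT passed narrowly, in 4.12% against 2.37% (ratio 1.74, adjusted exact p = 0.0398), and it kept its call in 2 of 11 alternatives, with ratios down to 1.18. The promoter E-box CAGCTG (adjusted exact p = 0.217), the Zelda site CAGGTAG (0.203) and the Pho site GCCAT (1) did not pass. The E-box passed in the conservative list (ratio 1.32, adjusted exact p = 0.0242), in replicate 2 alone (1.39, 0.0142), in the stronger 50% of peaks (1.39, 0.0420) and with summits within 1000 bp (1.26, 0.0374).

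The replicates gave the same order for the main motifs. DRE shares were 9.69% against 4.46% in replicate 1 and 12.5% against 5.47% in replicate 2. Motif 7 shares were 16.3% against 6.87% and 18.8% against 9.33%, and GAGA shares 13.5% against 26.7% and 16.8% against 31.0%. For each of the 3 motifs the values of both replicates in 1 class lay apart from those in the other class.

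Base composition differed along with the motifs. Mean GC content of these windows was 37.6 ± 7.82% at divergent and 40.3 ± 8.72% at unpaired passing peaks (SD over windows), and 48.1% in both classes at ranked summits that did not pass. It was 34.1% in the strongest 100 of the 897. The part of base composition in the motif shares, and above all in those of A and T rich sites such as the TATA box, was not tested.

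The classes also differed in motifs at ranked summits that did not pass, which may lie at a promoter that holds another, passing summit. Among ranked summits that did not pass, the DRE was in 3.72% of 3544 windows at divergent and 1.07% of 12160 at unpaired promoters. Motif 7 was in 6.18% and 2.80% of them, and GAGA in 21.6% and 26.7%. Within the divergent class, 45.0% (38.8 to 51.3%) of the 240 ranked summits with a DRE passed, against 18.8% (17.6 to 20.0%) of those without. With Motif 7 it was 44.1% (39.3 to 49.1%) of 392 against 17.9% (16.7 to 19.1%). The same order held at unpaired promoters, with 30.5% against 8.55% for the DRE and 21.6% against 8.43% for Motif 7. It was not particular to these motifs. With a TATA box 39.1% of 832 divergent summits passed against 15.8% without, and 15.7% against 7.63% of unpaired ones. The part of base composition in these shares was not tested. For GAGA the divergent class had 16.4% (14.1 to 18.9%) with the site and 21.2% (19.9 to 22.6%) without, and the unpaired class 9.42% (8.51 to 10.4%) and 8.65% (8.11 to 9.23%).

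**Figure D4:**
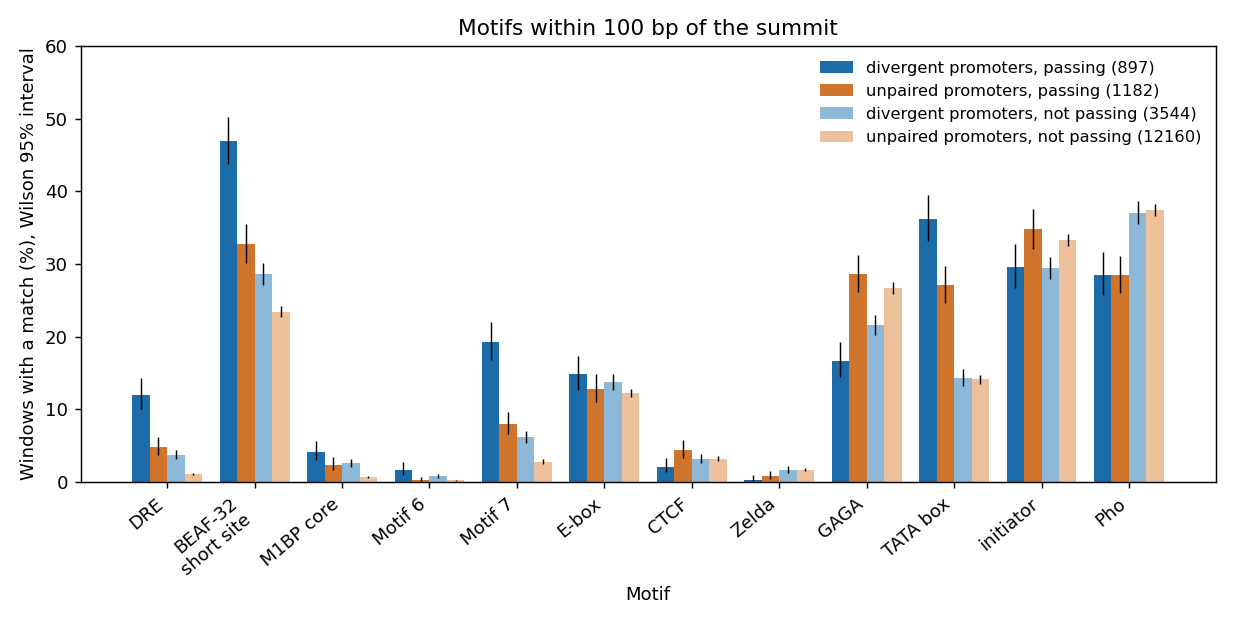
Share of windows within 100 bp of the summit that hold each of 12 motifs, in percent with Wilson 95% intervals, at divergent and unpaired promoters for passing and other ranked summits. DRE and Motif 7 are highest at passing divergent summits, at 12% and 19.3%, and GAGA is lowest there, at 16.7%.

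At least 1 of DRE, M1BP core, Motif 6 and Motif 7 was in 292 of the 897 windows, or 32.6% (29.6 to 35.7%), against 13.4% (11.5 to 15.4%) at unpaired promoters. DRE and Motif 7 stood together in 25 windows. None of the 12 motifs was in 72 windows, or 8.03%. In the strongest 100 peaks the DRE was in 8 windows, Motif 7 in 15, and Motif 6 and the M1BP core in 2 each, so most of these windows held none of the 4. Motif 7 was in 15.2% (12.2 to 18.8%) of the stronger 448 peaks and 23.4% (19.7 to 27.5%) of the weaker 449, and the DRE in 12.7% and 11.4%.

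DRE and Motif 7 gathered around the summits of both classes, and GAGA sites did not gather around divergent summits. In windows of 50 bp within 100 bp of divergent summits there were 2.90 to 3.68 DRE matches and 5.24 to 5.80 Motif 7 matches per 100 peaks. The highest DRE window lay 50 to 100 bp to the left of the summit. Between 100 and 150 bp to the left and right the DRE had 1.56 and 2.56. Motif 7 had 4.57 and 4.46 there, so it was spread broadly over 150 bp to each side. DRE and Motif 7 had 0.334 and 0.557 in the window farthest to the left and 0.557 and 1.90 in that farthest to the right. Among divergent peaks with a match within 100 bp of the summit, the nearest DRE was a median of 53 bp away and the nearest Motif 7 42 bp. For GAGA that median was 45.5 bp, so these medians do not show whether a motif gathers. Within 100 bp of unpaired summits there were 1.02 to 1.61 DRE matches and 1.95 to 3.30 Motif 7 matches per 100 peaks. At the far ends of unpaired promoters the DRE had 0.169 on both sides, and Motif 7 had 0.761 and 0.508. GAGA matches, in which overlapping repeats count more than once, were 4.79 to 6.02 per 100 peaks within 100 bp of divergent summits. At unpaired promoters GAGA matches gathered around the summit with a dip at its centre. They were 11.7 and 13.6 in the 2 windows next to the summit, reached 23.0 and 24.5 between 100 and 150 bp to each side, and fell to 10.6 and 10.2 at the far ends.

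**Figure D5:**
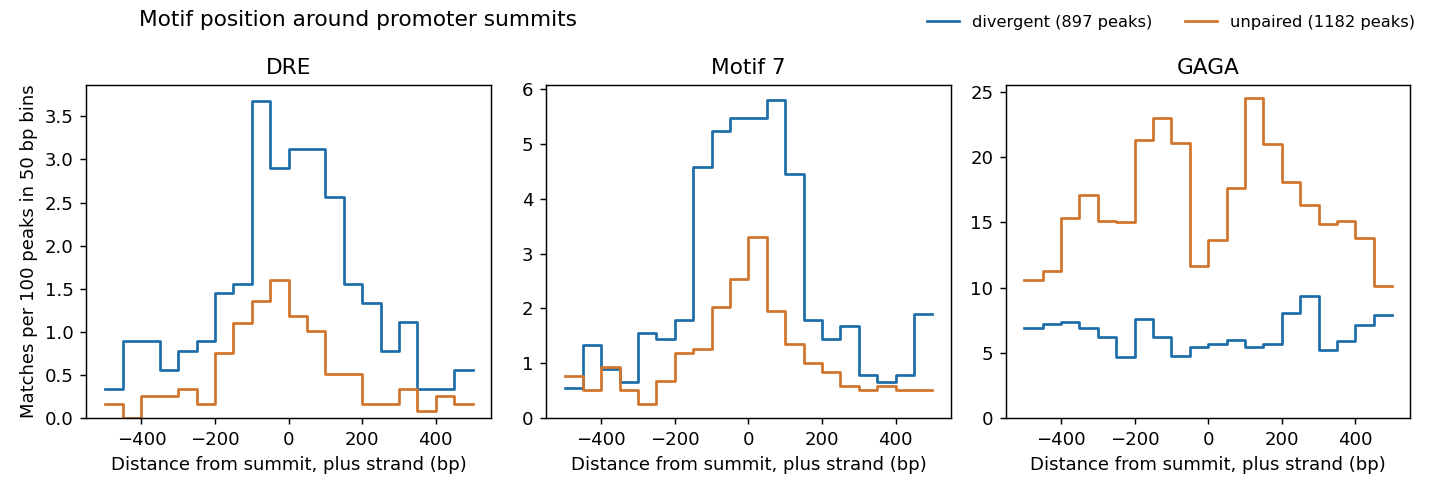
Matches of DRE, Motif 7 and GAGA per 100 peaks in 50 bp windows (y axis, scaled for each panel) by distance from the summit in bp on the plus strand (x axis), at divergent (blue) and unpaired (orange) promoters. DRE and Motif 7 rise around divergent summits to 3.68 and 5.80 matches and around unpaired summits to 1.61 and 3.30. GAGA stays between 4.68 and 9.36 at divergent promoters.

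Words of 8 bases were also compared. From chromosome 2, 10 words of 8 bases that were more frequent within 50 bp of divergent summits than 500 bp to each side were carried to 3L, 3R, 4 and X. There 0 of the 10 passed between 548 divergent and 699 unpaired peaks (Fisher's exact test, Benjamini-Hochberg over the 10), and 1 had an unadjusted exact p below 0.05. This was TATCGATA, the DRE, in 5.29% against 2.86% (ratio 1.85, 1.06 to 3.23, adjusted exact p = 0.388). The ratios of the 10 words were all above 1, from 1.28 to 1.97.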

How the data were processed

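The files are peak lists on dm6, per the labels, made by the authors for each replicate and for pooled reads. The deposited signal is a score of the peak caller per peak. The ranked lists give the −log10 of the global irreproducible discovery rate (IDR), as deposited. The thresholded lists held peaks at 2 or more on that scale. The name of the program that called the peaks, and that of the aligner, was not given in the sources used here. Read numbers are not given either, so depth is unknown and intervals cover counting error only. DNA was sheared to between 200 and 800 bp, per the labels. Replicates 1 and 2 had 3010 and 2695 passing peaks of 109282 and 125735 ranked ones, and the pooled list 4495. Nothing in the labels says how far the biological replicates were separate beyond that name.

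Start sites and exons came from Ensembl release 115, sequence from RefSeq release 6, both dm6. Summits were set against 19607 TSS positions of 13945 protein-coding genes. A replicate's signal at a peak is that of the strongest peak of its ranked list that overlaps by at least 1 bp. Pairs of shares went into a two-sided Fisher's exact test with Benjamini-Hochberg adjustment and a threshold of 0.05. Intervals are Wilson 95% intervals. Named were the 25 strongest members that passed in both replicates, the 3 strongest of each gene list, of which some are given, and the 3 on each side of each limit. Other genes were named after their values were seen. The members and lists were chosen with earlier results of these data known. Sequence stretches were clipped at exons, which differs from the rule first written, and none is shown for 2R. Alternatives were the conservative list, each replicate alone, the stronger 50% of peaks, other distance limits, outermost start sites, no overlapping peaks, a 50 bp motif window and, chosen after seeing the data, peaks past the IDR limit added. Words of 6 and 8 bases were also looked at in sets of strong peaks without a planned test, and no value from that look is reported. The class rule and the tests were tested on simulated data. Python 3.11.15, pandas 2.3.3, numpy 2.4.6 and scipy 1.17.1 were used.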

Additional observations from a re-analysis of the deposited data

Results flagged for a closer look

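At divergent promoters, 22 ranked peaks of the pooled list reached the IDR limit but were absent from the thresholded list, so they counted above among the ranked summits that did not pass. On the arms there were 118 such peaks, of which 32 were at unpaired promoters. Of the 22, 0 overlapped a passing peak, and 9 had a signal above the median of the 897. The strongest was at CG18428 and eIF4EHP, a cap-binding repressor of translation (signal 762.96; 3R, 24108963 to 24109364). It was followed by pont, an ATPase of chromatin remodellers, with Sirt6 (481.96; 3R, 10261861 to 10262117) and by CG4297 with the Mediator gene MED15 (383.39; 2L, 472371 to 472546). Other genes in these pairs were RpL13A (259.52), Ras85D (143.56) and Sin3A (169.45), and all of these genes were named after their values were seen. Why the peaks are absent from the thresholded list was not tested.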

How the results depend on the processing

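The excess of bound genes at divergent promoters (ratios 2.27 to 2.76 over 9 alternatives) and of passing summits (2.01 to 2.61 over 10) kept its direction and its call in each. The conservative list could be traced in the ranked list for 4056 of its 4078 peaks on the arms. The difference in the share above the median signal was lost with 1 replicate alone (1.0613 to 1.0784). The share found in both replicates passed with summits within 200 bp (1.1224) or 1000 bp (1.1343), pairs up to 500 bp apart (1.1214) and without overlapping peaks (1.0935), and turned, without passing, in the stronger 50% of peaks (0.992). The upstream share, which the rule itself limits, ranged from 0.9697 to 1.0265 with 1 replicate alone, was 0.9627 for outermost start sites, and passed at 200 bp (1.0617). Of the 12 motifs 4 passed in a window of 50 bp to each side, against 9, and 4 to 10 over all 11 alternatives. DRE, Motif 7, the short BEAF-32 site and GAGA passed in all 11, CTCF and the TATA box in 10, Motif 6 in 9, the initiator in 8 and the M1BP core in 2, while the E-box passed in 4 (1.26 to 1.39). The cause of these changes was not tested. Motifs that missed the threshold changed sign without passing, the Pho site in the conservative list (0.9862), the stronger 50% (0.9718), at 200 bp (0.9335) and 1000 bp (0.9664), pairs up to 500 bp (0.9705), outermost start sites (0.9918) and the 50 bp window (0.9072; with 1 replicate alone 0.9854 to 1.0898), and the E-box at 200 bp (0.9998). The number of words that passed was 0 in 6 alternatives. No paired analysis was possible because there was 1 group. Without read counts, depth limits the weak peaks by an unknown amount.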
